A study of Rattus norvegicus with 6 samples.

Results

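The renin-angiotensin system genes examined here are 8 rat genes: Agt, Ace, Agtr1a, Agtr1b, Enpep, Mme, Nr3c2 and Atp6ap2. A probe was counted to a gene when its listed identifier was a RefSeq transcript of that gene. That rule found 14 probes for 7 of the 8 genes, among 61657 non-control probes and 15284 named genes on the array, and no probe for Atp6ap2. Renal cortex RNA was taken from 6 Sprague-Dawley (Crl:CD(SD)) males that were 5 weeks old at purchase, and each array carries 1 animal. N-nitrosodimethylamine (NDMA), a nitrosamine that the body oxidises to a DNA-methylating agent, was given to 3 rats at 4 mg/kg/day for 4 weeks, and the other 3 rats received water for 4 weeks as the control. The comparison addresses how transcripts of the renal cortex differ after 4 weeks of NDMA.

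The renin-angiotensin system controls blood pressure and sodium balance. Angiotensinogen (Agt) is the precursor from which angiotensin I is cut, and angiotensin-converting enzyme (Ace) trims that peptide to angiotensin II. Angiotensin II acts on the AT1 receptor, which rodents encode with a pair of genes (Agtr1a and Agtr1b), and also raises aldosterone, the ligand of the mineralocorticoid receptor (Nr3c2). Peptidases of the cell surface such as aminopeptidase A (Enpep) and neprilysin (Mme) shorten these peptides further. The kidney holds a local version of the system, with Agt made by the proximal tubule and several of the enzymes in its brush border.

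Between 43016 and 46248 probes per array were well above background. Correlations across probes, which are not replicates, lay between 0.992 and 0.994 within a group and between 0.985 and 0.990 across groups. The files place NDMA animal 1 together with the 3 controls on slide 1, while NDMA animals 2 and 3 share slide 2, whose scan date differs. The tissue label was checked against markers: all 10 proximal tubule genes, all 5 podocyte genes and the collecting duct gene Aqp2 were measured, while of 6 adrenal cortex genes Cyp17a1 and Cyp21a1 were measured and Cyp11b1, Cyp11b2, Star and Mc2r did not meet the detection filter. Of the leukocyte markers, 7 of 8 macrophage and 5 of 6 T cell genes were higher after NDMA, against 3.56% of 12175 named genes. Of 2 tested B cell and 2 tested neutrophil genes 0 passed. Among genes well above background on all 6 arrays, 7 of 8 macrophage and 4 of 5 T cell genes passed. With a slide block 0 macrophage and 0 T cell genes passed, with a median difference of 1.1 for macrophage genes (1.22 without the block) and 1.59 for T cell genes (1.62 without it). Without control 1, 3 genes of each list passed. The number of arrays limits the precision, and whole cortex was measured, so fewer cells of a type and less RNA per cell cannot be told apart.

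None of the renin-angiotensin transcripts passed the test after NDMA. By limma, 0 of the 14 probes had an adjusted p under 0.05, against 2.99% of all 43118 probes tested (2.5% higher and 0.485% lower after NDMA). At an unadjusted p under 0.05 there were 3 probes (21.4%), against 18.3% of all probes. With normexp background correction, which models background from the raw spot signals, 1 of the 14 probes passed, that of Agtr1a. That correction was planned on mean signals, and its use of median signals was chosen after the data were seen. All 14 probes were well above background on all 6 arrays and none was saturated, so every value is a measured one. The 3 animals per group did not overlap at 3 probes (21.4%), all with NDMA lower, against 26.9% of all probes in either direction and 16.0% with NDMA lower, so the share is near that of the whole array. Of the 14 differences 12 were below 0, against 58.1% of all probes, and their median was -0.24, against -0.04 for all probes. Probes of 1 gene share their transcript, so these counts describe 7 genes and not 14 separate ones.

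**Figure D1:**
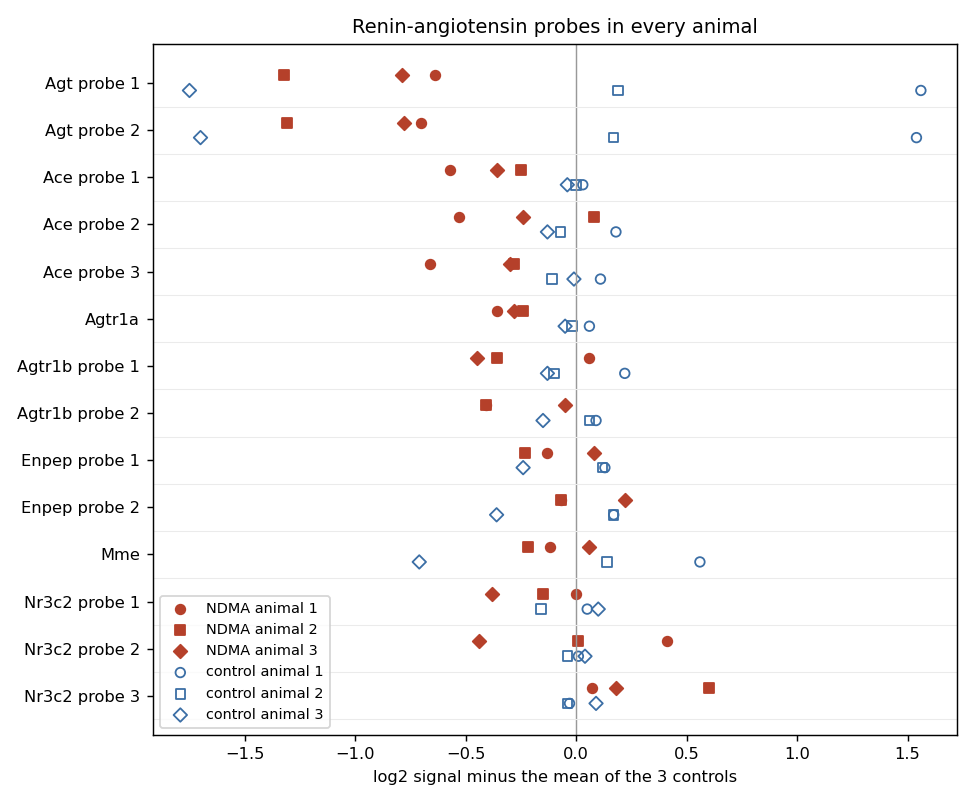
Normalised log2 signal of each of the 14 probes in every animal, drawn as the difference from the mean of the 3 controls (x axis, log2 units). Filled red symbols are NDMA animals and open blue symbols are controls; the groups are apart for Ace probes 1 and 3 and for Agtr1a, and the controls of both Agt probes spread more widely than those of any other probe drawn.

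The substrate Agt differed most between single animals. Values here are the log2 of the processed intensity minus the 75th percentile of the same array, so 0 marks a spot as bright as that percentile. The brighter Agt probe (A_64_P154849) read 0.22, -0.46 and 0.07 in NDMA animals 1 to 3, against 2.42, 1.05 and -0.89 in controls 1 to 3. All 3 NDMA animals lay between the controls, and control 1 was 9.88-fold brighter than control 3. The other probe (A_43_P13272) read -0.98, -1.59 and -1.06 after NDMA, against 1.26, -0.11 and -1.98 in controls. Both probes gave the same picture: their gap within an animal stayed between 1.09 and 1.20 over all 6 animals.

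The group difference of Agt was therefore poorly determined. It was -0.92 ± 0.78 (SE, n = 3 per group, limma adjusted p = 0.558) at the brighter probe, with a 95% interval from -2.79 to 0.96, and -0.94 ± 0.76 at the other. Without control 1 the difference at the brighter probe was -0.14, and without control 3 it was -1.79 (limma adjusted p = 0.138), so a pair of control animals decides its size. The standard deviation of the 3 controls was 1.66, which was larger than that of 99.8% of all tested probes, and that of the NDMA animals was 0.36. Whether the spread itself differed between groups was not tested.

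Mme, which encodes neprilysin, a brush border and podocyte peptidase that cuts angiotensin I and also degrades natriuretic peptides and kinins, showed the same order of controls. It read 2.14, 2.04 and 2.32 in NDMA animals 1 to 3, against 2.82, 2.40 and 1.55 in controls 1 to 3. Again the NDMA animals lay within the control range, which spanned 2.42-fold. The difference was -0.09 ± 0.31 (limma adjusted p = 0.901), with an interval from -0.84 to 0.66, and it ran from -0.44 without control 3 to 0.19 without control 1.

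Transcripts of other cells and of tubule segments are given beside these values. Slc7a13, an amino acid transporter of the last segment of the proximal tubule, read 4.30, 3.80 and 4.56 after NDMA and 5.78, 4.79 and 2.57 in controls. Mep1b, the brush border protease meprin beta, read 2.78, 2.73 and 3.04 after NDMA and 4.64, 3.53 and 1.88 in controls. In both genes, as in Agt and Mme, control 1 was the highest animal and control 3 the lowest. Both were named after their values were seen, and Slc7a13 had the highest correlation with Mme among named genes. The shared order is therefore no separate support. Slc5a2, the glucose transporter of the early proximal tubule, read 7.51, 7.29 and 7.22 after NDMA and 7.53, 7.61 and 7.52 in controls, so the controls were nearly level. Agt is also a liver product, and all 5 hepatocyte genes were detected, with Alb at 3.01, -4.08 and -1.03 after NDMA and at -0.15, 0.74 and -5.61 in controls. The summed hepatocyte signal, in multiples of the array's 75th percentile, ranged from 1.58 to 16.3 in NDMA animals and from 0.609 to 3.93 in controls. Alb was highest in NDMA animal 1, where Agt was not, and lowest in control 3, as Agt was. The part of tubule segments or of liver transcripts in the Agt and Mme values was not tested.

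**Figure D2:**
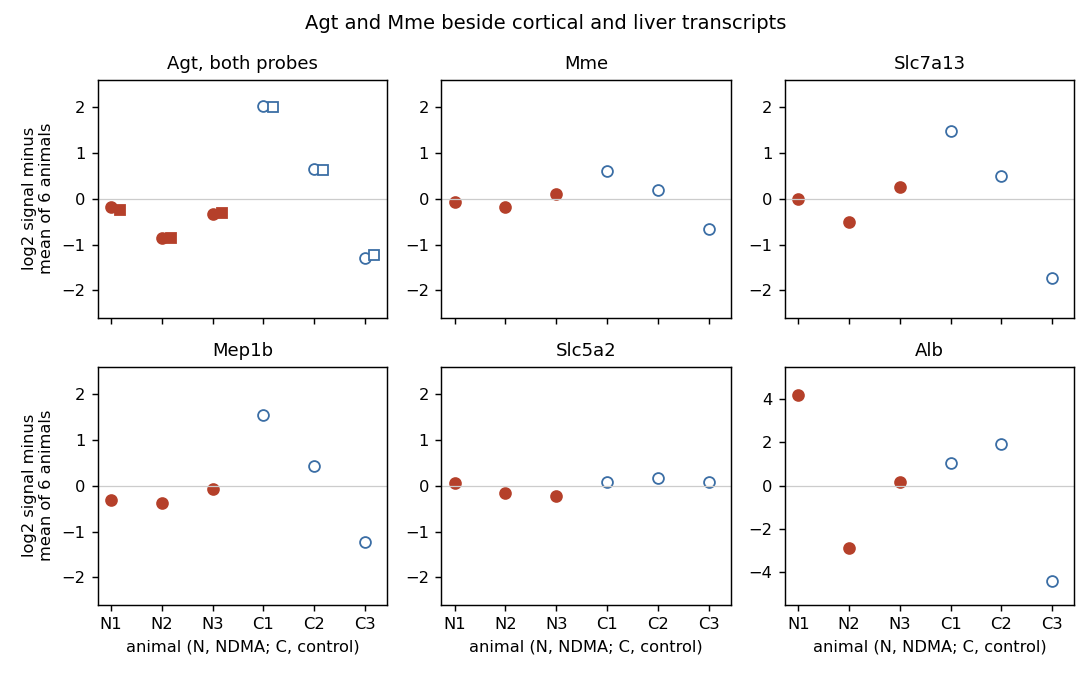
Log2 signal of Agt (circles, brighter probe; squares, other probe), Mme, Slc7a13, Mep1b, Slc5a2 and Alb in NDMA animals N1 to N3 (filled red) and controls C1 to C3 (open blue), each minus its mean over the 6 animals; the Alb panel has a wider axis. Agt, Mme, Slc7a13 and Mep1b are highest in control 1 and lowest in control 3, and Slc5a2 is nearly level in the controls. The genes drawn beside Agt and Mme were named after their values were seen.

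By Pearson correlation over the 6 animals, the named genes most like Agt among those tested were Gjb2 (0.997), Iqch (0.996) and Usp3 (0.988), and those most like Mme were Slc7a13 (0.997), Irx5 (0.988) and Spink8 (0.988). These lists were drawn up after the values of Agt and Mme had been seen, and they rest on 6 points.

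Ace, the enzyme that makes angiotensin II and breaks down bradykinin, was lower in the NDMA animals at 2 of its 3 probes without passing the test. The brightest Ace probe (A_64_P098230) read -1.60, -1.28 and -1.39 in NDMA animals 1 to 3, against -1.0, -1.03 and -1.07 in controls. Every NDMA animal was below every control, and the controls were close together. The difference was -0.39 ± 0.10 (limma adjusted p = 0.123), a ratio of 0.764 with a 95% interval from 0.644 to 0.906. A further probe (A_64_P010531) read -3.93, -3.55 and -3.57 after NDMA, against -3.16, -3.38 and -3.28 in controls, again without overlap, and differed by -0.41 ± 0.13 (limma adjusted p = 0.180). At the remaining probe (A_43_P11457) the groups overlapped, with -3.54, -2.93 and -3.25 after NDMA, against -2.83, -3.08 and -3.14 in controls, and the difference was -0.23 ± 0.17 (limma adjusted p = 0.513). NDMA animal 1 was the lowest animal at all 3 probes. Within slide 1, where it stood against the controls, the differences of the 3 probes from the brightest down were -0.56, -0.53 and -0.65, and without it they were -0.30, -0.08 and -0.29.

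Ace is carried by endothelium and by the proximal tubule brush border. The summed signal of 6 endothelial markers ranged from 28.3 to 35.9 in NDMA animals and from 33.2 to 37.9 in controls, and 0 of the 6 passed. That of the 10 proximal tubule markers ranged from 1800 to 2100 after NDMA and from 2340 to 2550 in controls, and 1 of the 10 passed, Lrp2, the endocytic receptor megalin, at -0.57 ± 0.10 (limma adjusted p = 0.0439, and 0.0652 with quantile normalisation; the call was kept in 0 of 6 fits without 1 animal). The summed signal weighs bright genes most. As a mean log2 deviation from the control mean, the 10 genes gave -0.21, -0.47 and -0.25 in NDMA animals 1 to 3. Controls 1 to 3 gave 0.14, 0.08 and -0.23, so by that measure the groups overlapped. All 10 proximal tubule markers had differences below 0, against 58.7% of all named genes, with a median of -0.32. With quantile normalisation 9 were below 0 and the median was -0.14. The part of endothelium and of proximal tubule in the Ace values was not tested.

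The promoters of Ace and of both AT1 receptor genes are shown because Ace and Agtr1a are the members whose groups did not overlap and Agtr1b is the close relative of Agtr1a. Each is the 250 bases before the gene start, written along the gene, from RefSeq on build GRCr8. Ace lies on the plus strand at chr10:91409879-91410128, Agtr1a on the minus strand at chr17:34435433-34435682 and Agtr1b on the minus strand at chr2:104849263-104849512. Capitals mark matches, on either strand, to a TATA box (TATAAA) or a GC box (GGGCGG), and GC boxes overlap each other in places.
Ace: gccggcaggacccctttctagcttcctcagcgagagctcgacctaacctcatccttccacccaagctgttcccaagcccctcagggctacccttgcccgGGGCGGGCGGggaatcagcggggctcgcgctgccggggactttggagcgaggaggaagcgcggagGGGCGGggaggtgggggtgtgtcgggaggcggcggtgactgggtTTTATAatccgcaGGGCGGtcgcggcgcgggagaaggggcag
Agtr1a: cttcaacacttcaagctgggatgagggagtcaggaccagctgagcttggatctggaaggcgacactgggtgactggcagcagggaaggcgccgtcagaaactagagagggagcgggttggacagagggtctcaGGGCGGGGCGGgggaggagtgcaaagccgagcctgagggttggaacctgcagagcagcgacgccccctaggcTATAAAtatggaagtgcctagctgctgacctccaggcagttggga
Agtr1b: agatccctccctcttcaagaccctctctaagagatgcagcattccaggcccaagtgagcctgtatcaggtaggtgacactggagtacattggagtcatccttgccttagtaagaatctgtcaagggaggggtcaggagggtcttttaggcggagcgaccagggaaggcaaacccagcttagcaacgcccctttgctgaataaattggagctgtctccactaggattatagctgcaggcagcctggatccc

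The Ace stretch held 4 GC boxes and 1 TATA box match, which reads on the other strand and begins 42 bases before the start. Agtr1a had 2 GC boxes and a TATA box 45 bases before the start, and Agtr1b had 0 of either. Of 33469 rat promoters cut to the same length, 30.5% held a GC box and 12.9% a TATA box. The letters of a STAT element (TTCNNNGAA, in 7.67% of promoters) and of a glucocorticoid receptor half-site (AGAACA, in 17.5%) were in none of the 3. The GC content was 69.2% for Ace, 60.8% for Agtr1a and 52.8% for Agtr1b, against a median of 51.2% over all promoters.

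The main AT1 receptor gene of the rodent kidney, Agtr1a, was also lower in every NDMA animal and did not pass. Its single probe (A_42_P486203) read 2.17, 2.29 and 2.25 in NDMA animals 1 to 3, against 2.59, 2.51 and 2.48 in controls. The groups were apart and each was tight, with standard deviations of 0.06 in both. The difference was -0.29 ± 0.08 (limma adjusted p = 0.134), a ratio of 0.816 with an interval from 0.713 to 0.933. It was -0.36 within slide 1 and ran from -0.32 to -0.26 over the fits without 1 animal. With normexp background correction it was -0.38 and passed (limma adjusted p = 0.0455).

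Agtr1b, the AT1 receptor gene better known from the adrenal and pituitary glands, had differences of similar size and less certain ones. Its brighter probe (A_64_P109894) read -0.35, -0.77 and -0.86 after NDMA, against -0.19, -0.51 and -0.54 in controls, and differed by -0.25 ± 0.17 (limma adjusted p = 0.464). NDMA animal 1 lay among the controls there, and the within-slide difference was 0.06. The other probe (A_44_P454413) read -3.62, -3.62 and -3.26 after NDMA, against -3.12, -3.15 and -3.36 in controls, and differed by -0.29 ± 0.13 (limma adjusted p = 0.306), or -0.41 within slide 1. The groups overlapped at both probes, and the probes disagreed on NDMA animal 1. Binding of Agtr1a transcripts to the Agtr1b probes, or the reverse, was not tested.

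**Figure D3:**
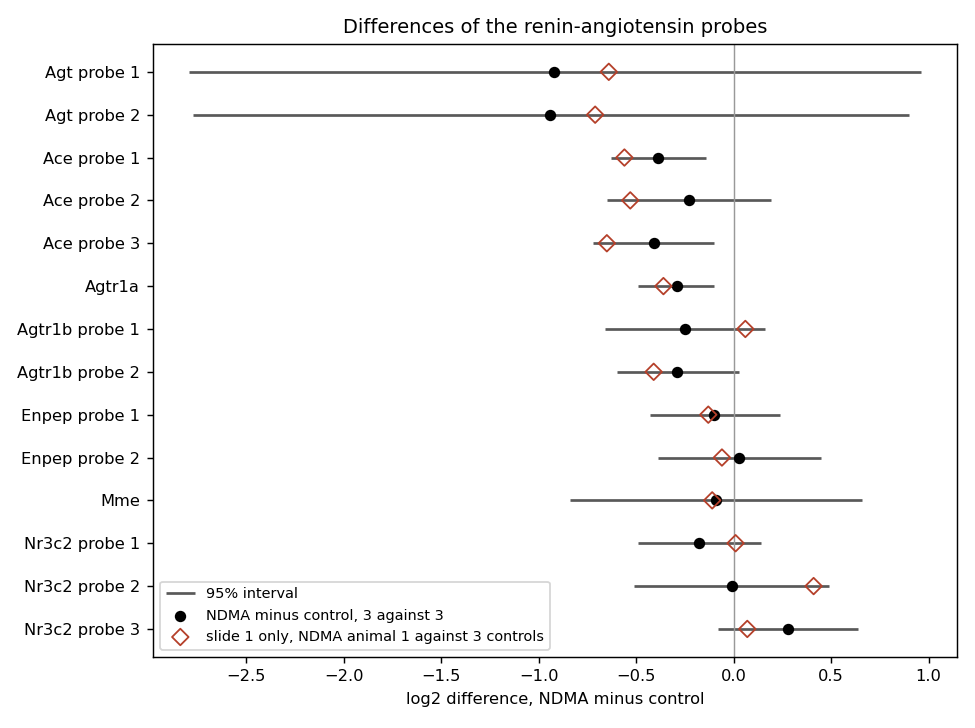
Log2 difference, NDMA minus control, of each probe (black points) with its 95% interval (bars, limma, 3 against 3 animals) and the difference within slide 1 (open diamonds, NDMA animal 1 against 3 controls). The intervals of Ace probes 1 and 3 and of Agtr1a lie below 0 before adjustment over all probes, and those of Agt are the widest.

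Enpep, the ectopeptidase that turns angiotensin II into angiotensin III, was close to 0 at both probes. The brighter probe (A_44_P209788) read 3.95, 3.85 and 4.16 after NDMA, against 4.21, 4.20 and 3.84 in controls, and the other (A_44_P144857) read 0.31, 0.31 and 0.60 after NDMA, against 0.55, 0.55 and 0.02 in controls. Control 3 was the lowest animal at both probes, as it was for Agt and Mme. The differences were -0.10 ± 0.14 (interval from -0.43 to 0.24) and 0.03 ± 0.17 (interval from -0.39 to 0.45), with limma adjusted p of 0.742 and 0.945.

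Nr3c2, the mineralocorticoid receptor, through which aldosterone acts in the distal nephron, did not pass at any of 3 probes, and its probes differed in sign. The brightest (A_43_P15261) read 0.45, 0.30 and 0.07 after NDMA, against 0.50, 0.29 and 0.55 in controls, a difference of -0.18 ± 0.13 (limma adjusted p = 0.499) that was 0.01 within slide 1. Probe A_44_P158441 read -4.51, -4.91 and -5.36 after NDMA, against -4.91, -4.96 and -4.88 in controls, a difference of -0.01 ± 0.21 (limma adjusted p = 0.982). Probe A_64_P014537 read -5.14, -4.61 and -5.03 after NDMA, against -5.24, -5.25 and -5.12 in controls, a difference of 0.28 ± 0.15 (limma adjusted p = 0.366) that was -0.03 with normexp. The NDMA animals spread more widely than the controls at both of these dim probes, and a different NDMA animal was the highest at each. No direction is given for this gene.

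By the correlation over 6 animals, the named genes most like the brightest Ace probe were Csrnp2 (0.995), Rinl (0.990) and Tor1b (0.989). Those most like Agtr1a were Or4p7 (0.991), Tulp1 (0.990) and Tor1b (0.989), and those most like the brighter Agtr1b probe were Herc3 (0.985), Usp40 (0.984) and Mif (0.983). Each value rests on 6 animals, includes the gap between groups and is among the highest of all named genes searched, so it is a description and not a test. Or4p7 was dim, at -6.47, -6.18 and -6.33 after NDMA and -5.29, -5.45 and -5.44 in controls. It belongs to a family of similar olfactory receptor sequences.

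Other genes of the pathway were read by their brightest tested probe. Over 12175 named genes 3.56% were higher and 0.485% lower after NDMA, with a median difference of -0.04. Of 15 genes that form or break angiotensin peptides 13 were tested, of which 1 was past the threshold (higher) and 0 fell. The list's median difference was -0.09. Over the 11 genes well above background on all 6 arrays the median was -0.14, and 0 of the 11 passed.

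The gene of this list past the threshold was Cma1, a mast cell chymase whose human counterpart makes angiotensin II without Ace. No control array had it well above background, so it met the detection filter through the NDMA arrays alone. It was at least 4.26-fold higher in NDMA animals, a bound against the faintest signal well above background on each control array (measured means -4.01 after NDMA and -7.11 in controls, limma adjusted p = 0.0171). The call was kept in 2 of 6 fits without 1 animal and lost with normexp (0.72, limma adjusted p = 0.0893), without the filter on dim probes (limma adjusted p = 0.0528) and with a slide block (3.13, limma adjusted p = 0.163). Summed signals of 4 mast cell markers, Cma1 among them, ranged from 0.435 to 1.04 in NDMA animals and from 0.294 to 0.357 in controls. In the main fit 2 of these 4 passed, both higher and Cma1 among them, and 0 passed with normexp or a slide block. Of the 4, only 1 was well above background on all 6 arrays, and it differed by 0.23 and did not pass. Another mast cell marker, Cpa3, also met the detection filter through the NDMA arrays alone. The sum is therefore no separate test of the Cma1 difference.

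Among other angiotensin receptors, Agtr2 was not well above background on any array, and the angiotensin 1-7 receptor Mas1 was so on 1 NDMA array and 2 control arrays; neither was tested. With the partners of the AT1 receptor, 15 genes of 18 were tested, and the median difference was -0.06. Of the 15, 2 rose and 0 fell, against 3.56% higher and 0.485% lower over all named genes. Rgs2, a brake on the Gq proteins that the AT1 receptor uses, read 1.36, 1.01 and 1.35 after NDMA, against 0.54, 0.66 and 0.50 in controls (0.67 ± 0.12, limma adjusted p = 0.0434). Arrb2, the arrestin beta-arrestin 2 that uncouples activated receptors, read 1.24, 1.1 and 1.18 after NDMA, against 0.66, 0.75 and 0.76 in controls (0.45 ± 0.08, limma adjusted p = 0.0425). For both genes every NDMA animal was above every control, while groups did not overlap at 26.9% of all probes in either direction. Both were named because they passed, so this is no separate support. The Rgs2 call was kept in 1 and the Arrb2 call in 0 of the 6 fits without 1 animal, and a slide block ended each call (limma adjusted p = 0.183 for Rgs2 and 0.203 for Arrb2). Both genes are also expressed by leukocytes, and the summed macrophage signal ranged from 60.8 to 72.6 in NDMA animals and from 25.6 to 31.3 in controls. The part of those cells was not tested.

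**Figure D4:**
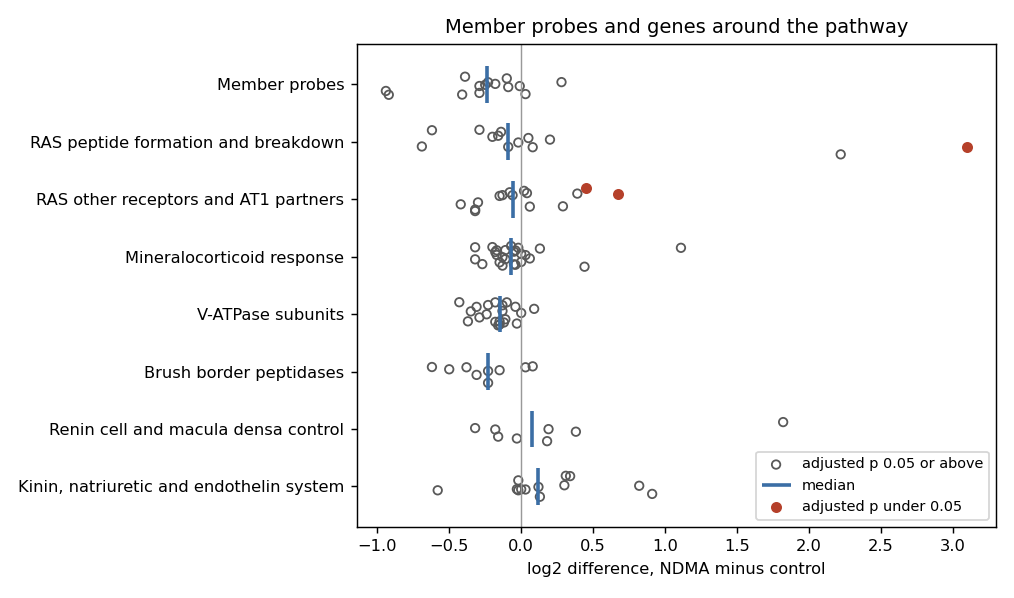
Log2 differences, NDMA minus control (x axis), of the 14 member probes and of the tested genes of 7 pathway lists, 1 point per probe or gene, with the median as a blue line. Filled red points had an adjusted p under 0.05 and are Cma1, Rgs2 and Arrb2. The points of Cma1, Cpa3 and Ptger2 are fitted values of genes that met the detection filter through the NDMA arrays alone.

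Among genes around the mineralocorticoid receptor (its targets, its chaperones and partners, and distal sodium transport), 0 of 25 tested passed, with a median of -0.07. Scnn1a, a subunit of the epithelial sodium channel, differed by 0.06 ± 0.20. Hsd11b2, the enzyme that shields the receptor from glucocorticoids, differed by -0.18 ± 0.14, and Sgk1, an aldosterone-induced kinase, by 0.13 ± 0.41. The smallest p in this list belonged to Prss8, a protease that activates the sodium channel (-0.27 ± 0.09, limma adjusted p = 0.191), and Slc26a4, the anion exchanger pendrin (-0.32 ± 0.15, limma adjusted p = 0.301, and -0.05 within slide 1). Fkbp5, a chaperone partner induced through the glucocorticoid and mineralocorticoid receptors and named after its values were seen, read 2.98, 3.16 and 3.62 after NDMA, against 1.28, 1.36 and 3.77 in controls. Control 3 was thus the highest animal for Fkbp5 and the lowest for Agt, and Fkbp5 differed by 1.11 ± 0.67 (limma adjusted p = 0.414). Without 1 animal it ranged from 0.68 (without control 1) to 1.93 (without control 3), and only the fit without control 3 passed (limma adjusted p = 0.0283).

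The proton pump that Atp6ap2 assists was read through 21 subunits, of which 0 passed. The differences of 20 subunits were below 0, against 58.7% of all named genes, and the median was -0.15. After quantile normalisation 19 were below 0 with a median of -0.09, and with a slide block 17 were, with a median of -0.08. The lowest p belonged to Atp6v0c, a subunit of the membrane ring (-0.43 ± 0.12, limma adjusted p = 0.149), and Atp6v1b2, a catalytic-sector subunit (-0.37 ± 0.11, limma adjusted p = 0.153). Of 9 brush border peptidases 0 passed, with a median of -0.23. They included Ggt1, gamma-glutamyltransferase, at -0.38 ± 0.14 (limma adjusted p = 0.230).

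Genes of juxtaglomerular cells and of macula densa control gave 0 of 8 tested past the threshold, with a median of 0.08. Over the 7 of them that were well above background on all 6 arrays the median was -0.03. Ptger2, a prostaglandin E2 receptor, was well above background on all NDMA arrays and 1 control array and did not pass (limma adjusted p = 0.133). It met the detection filter through the NDMA arrays alone, so its difference is not given. Adrb1, a beta-adrenergic receptor, differed by -0.32 ± 0.13 (limma adjusted p = 0.271). Among kinin, natriuretic and endothelin genes 0 of 13 passed, with a median of 0.12. Npr1, the receptor of atrial natriuretic peptide, read 2.59, 2.78 and 2.85 after NDMA, against 2.37, 2.43 and 2.40 in controls, with a difference of 0.34 ± 0.09 (limma adjusted p = 0.137), or 0.19 within slide 1. Nppa, which encodes that peptide and whose product Mme degrades, differed by -0.58 ± 0.21 (limma adjusted p = 0.217), or by -0.13 within slide 1. Across the 7 lists the genes past the threshold were Rgs2, Arrb2 and Cma1, the last of which met the detection filter through the NDMA arrays alone. The lists share a few genes such as Anpep and Klk1.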

How the data were processed

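Cy3-labelled RNA was measured on Agilent rat arrays in 1 colour. Spots were read by the authors in Agilent Feature Extraction (10.7 in the submitters' processing notes, 10.7.1.1 in the headers). Each deposited processed intensity was background-subtracted and detrended within its own array and not scaled to the other arrays, per the file headers. The authors' deposited value table holds a linear ratio, equal to the processed intensity divided by the 75th percentile of that array (largest log2 difference 0.00174, checked on values above 0.1, which leaves out many of the dimmest). Here the log2 of the processed intensity was reduced by the array's 75th percentile over 61657 non-control probes, which was 1053.3, 1309.6 and 1299.1 for NDMA and 1044.8, 993.4 and 1026.4 for control animals. Spots with outlier flags were set missing. A probe was tested if every array of either group had it well above background (43118 probes). No spot was averaged, since each probe has 1 spot. Names came from RefSeq assembly GRCr8 by accession without version (15360 of 16372 matched). The array annotation names build rn4, so no probe coordinates are given.

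NDMA was compared with control in limma (version 3.58.1, R 4.3.3) by lmFit and eBayes, two-sided. The residual degrees of freedom were 4 and the prior ones 2.4. Adjusted p follows Benjamini and Hochberg over all tested probes, with a threshold of 0.05. With 3 animals a group the smallest exact permutation p is 0.1, so none is given. The fit was tested on simulated data. The members and lists were chosen with earlier results of these data known. Genes were named from each list if they passed (up to 4 by smallest p), otherwise the 2 with the smallest p, and Agtr2, Mas1, Sgk1, Hsd11b2 and Scnn1a were always given, while a few items the rule names are not reported here; likeness was taken for the 3 members with the smallest p at their brightest probe. Slc7a13, Mep1b, Slc5a2, Alb, Fkbp5 and Lrp2 were named after their values were seen. The planned normexp correction used mean signals, which are not used here, and the median signal and background intensity deposited by the authors (raw pixel values per the file headers) took their place.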

Additional observations from a re-analysis of the deposited data

How the results depend on the processing

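The count of renin-angiotensin probes past the test was 0 with quantile and median scaling, both filters, the slide as a block, slide 1 alone, the replicate block, each left-out animal (lowest and highest 0), trended and robust variance, the brightest probe per gene and the authors' value table. It was 1 with normexp, where Agtr1a passed at -0.38. Over all probes 1289 passed, 83.8% of them higher, against 1459 with normexp, 64.6% of them higher. The count was 488 without the filter, 82 with the slide as a block, 0 by limma on slide 1 alone (unadjusted p was under 0.05 for 4667 probes, the lone NDMA animal being assumed to vary like the controls), 511 with the replicate block, and from 464 to 987 without 1 animal. Same-numbered animals of both groups had deviations correlated at 0.03, -0.05 and 0.01, so the numbers were not taken as pairs. Some signs changed. With the slide as a block and on slide 1 alone they became 0.06 for Agtr1b probe A_64_P109894, -0.06 for Enpep probe A_44_P144857, 0.01 for Nr3c2 probe A_43_P15261, 0.41 for Nr3c2 probe A_44_P158441 and -0.02 for Scnn1a. With normexp they became -0.03 for Nr3c2 probe A_64_P014537 and -0.05 for Scnn1a. Without 1 animal the values ran from -0.44 to 0.19 for Mme, from -0.15 to 0.12 for that Enpep probe, from -0.22 to 0.20 for Nr3c2 probe A_44_P158441, from -0.17 to 0.53 for Sgk1 and from -0.08 to 0.23 for Scnn1a. For Cma1, Rgs2 and Arrb2 together, a call was lost 13 times over these settings and 15 times over the fits without 1 animal. The Lrp2 call was also lost with quantile scaling, without the filter and with the slide or replicate block. The cause of these changes was not tested. With 3 animals per group, the 95% intervals of the 14 probes show the precision of each difference in the main fit. Each interval is for a single probe without adjustment, and none takes the slide into account.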
